A study of Rattus norvegicus with 4 samples.

Results

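The genes described here are 9 signals, antagonists and receptors of the transforming growth factor beta (TGF-beta) superfamily, out of 32883 genes counted. They were chosen by symbol. Inhba and Inhbb encode the subunits of activins A and B, Bmp4 and Bmp6 encode bone morphogenetic proteins (BMPs), and Tgfb2 encodes TGF-beta 2. Bmper and Grem1 encode secreted proteins that bind BMPs, and Acvr1c and Bmpr1b encode type I receptors. Each had exactly 1 row in the count tables. Single-nucleus RNA sequencing compared thoracic aorta perivascular adipose tissue (taPVAT), the fat around the aorta, with subscapular brown adipose tissue (BAT), the classical thermogenic fat. Each tissue was represented by 2 libraries, replicates 1 and 2. All 4 libraries came from snap-frozen tissue of male Dahl salt-sensitive rats (SS/HsdMcwiCrl), 16 weeks old, fed standard Teklad chow and labelled as normal. Salt-sensitive rats develop hypertension on high salt, but none of these animals was labelled as treated. The labels do not say which animals gave the tissue or whether one rat gave both, so p-values measure the spread between libraries, which may be partly technical.

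As background, ligands of this family bind a pair of type I and type II receptors, which phosphorylate SMAD transcription factors inside the cell. BMPs signal mostly through SMAD1, SMAD5 and SMAD9, and activins, GDF3 and TGF-beta mostly through SMAD2 and SMAD3. In adipose tissue, BMP4 is known for committing mesenchymal progenitors to the adipocyte lineage, and ALK7, the product of Acvr1c, is a receptor of mature adipocytes known for restraining lipolysis. BMP6 made by endothelium is known from the liver, where it sets hepcidin expression. BMPER binds BMPs in the extracellular space and can either block or assist them.

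Nuclei with at least 500 detected genes were kept and doublets removed, which left 11520 to 38346 nuclei and 56623563 to 136242694 unique molecular identifiers (UMIs) per library. Clusters were named from marker lists as adipocyte-like (9183 to 28689 nuclei per library), fibroblast-like (608 to 970), vascular endothelial-like (455 to 2187) and mural-like (288 to 782), where mural cells are pericytes and smooth muscle cells. These 4 classes are called adipocytes, fibroblasts, endothelium and mural cells below. Lymphatic endothelial-like and mesothelial-like clusters and mixed clusters were kept apart. In single libraries, mixed clusters held 9.30% to 36.4% of Bmp6 UMIs, 7.12% to 40.0% of Tgfb2 and 6.39% to 30.1% of Bmper. The UMIs of mixed clusters entered no class level. For each of these genes the share was lowest in taPVAT replicate 2, where 2.82% of nuclei were mixed. It was highest in taPVAT replicate 1, where 11.1% were. Gated singly by their own markers, 129 of the 442 lymphatic nuclei passed as lymphatic and 187 as vascular endothelial. Of the 422 mesothelial nuclei, 23 passed as mesothelial, 109 as adipocyte and 76 as fibroblast, so levels in these small classes are those of clusters whose nuclei are not all of the named type by this gate. The libraries did not stand together by tissue alone: adipocyte clusters and the main endothelial clusters were each filled mostly by libraries of 1 replicate number. Pairs of libraries shared 126 to 424 cell barcodes, 0.853% to 1.29% of those of the smaller library. RNA of adipocyte markers was counted in the other classes compared. The median adipocyte marker in fibroblasts, endothelium and mural cells was 21.4% to 48.0% of its level in adipocytes, and single markers ran from 0% to 419%. Whether this RNA came from adipocytes was not tested. In the opposite direction, the median endothelial marker in adipocytes was 0.411% to 1.22% of its endothelial level, and the median fibroblast marker 1.24% to 2.16% of its fibroblast level. Levels are counts-per-million values (CPM), a gene's UMIs relative to all UMIs of the summed nuclei of 1 class in 1 library. Values of 4 libraries are listed as taPVAT replicates 1 and 2 and then BAT replicates 1 and 2.

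The members differed in their main source. Acvr1c lay in adipocytes, Bmp6 in endothelium, Bmper and Tgfb2 in fibroblasts, Tgfb2 also in mural cells, and the highest levels of Inhba and Bmpr1b lay in small groups of lymphatic, smooth muscle-like and mesothelial nuclei. Between the tissues, Bmp6 in endothelium averaged 428 ± 108 CPM in taPVAT and 265 ± 86.4 CPM in BAT (SD, n = 2 each), and Bmper in fibroblasts averaged 653 ± 120.4 CPM in taPVAT and 953 ± 183 CPM in BAT (SD, n = 2 each). No member passed the test between the tissues in any of the 5 fits.

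**Figure D1:**
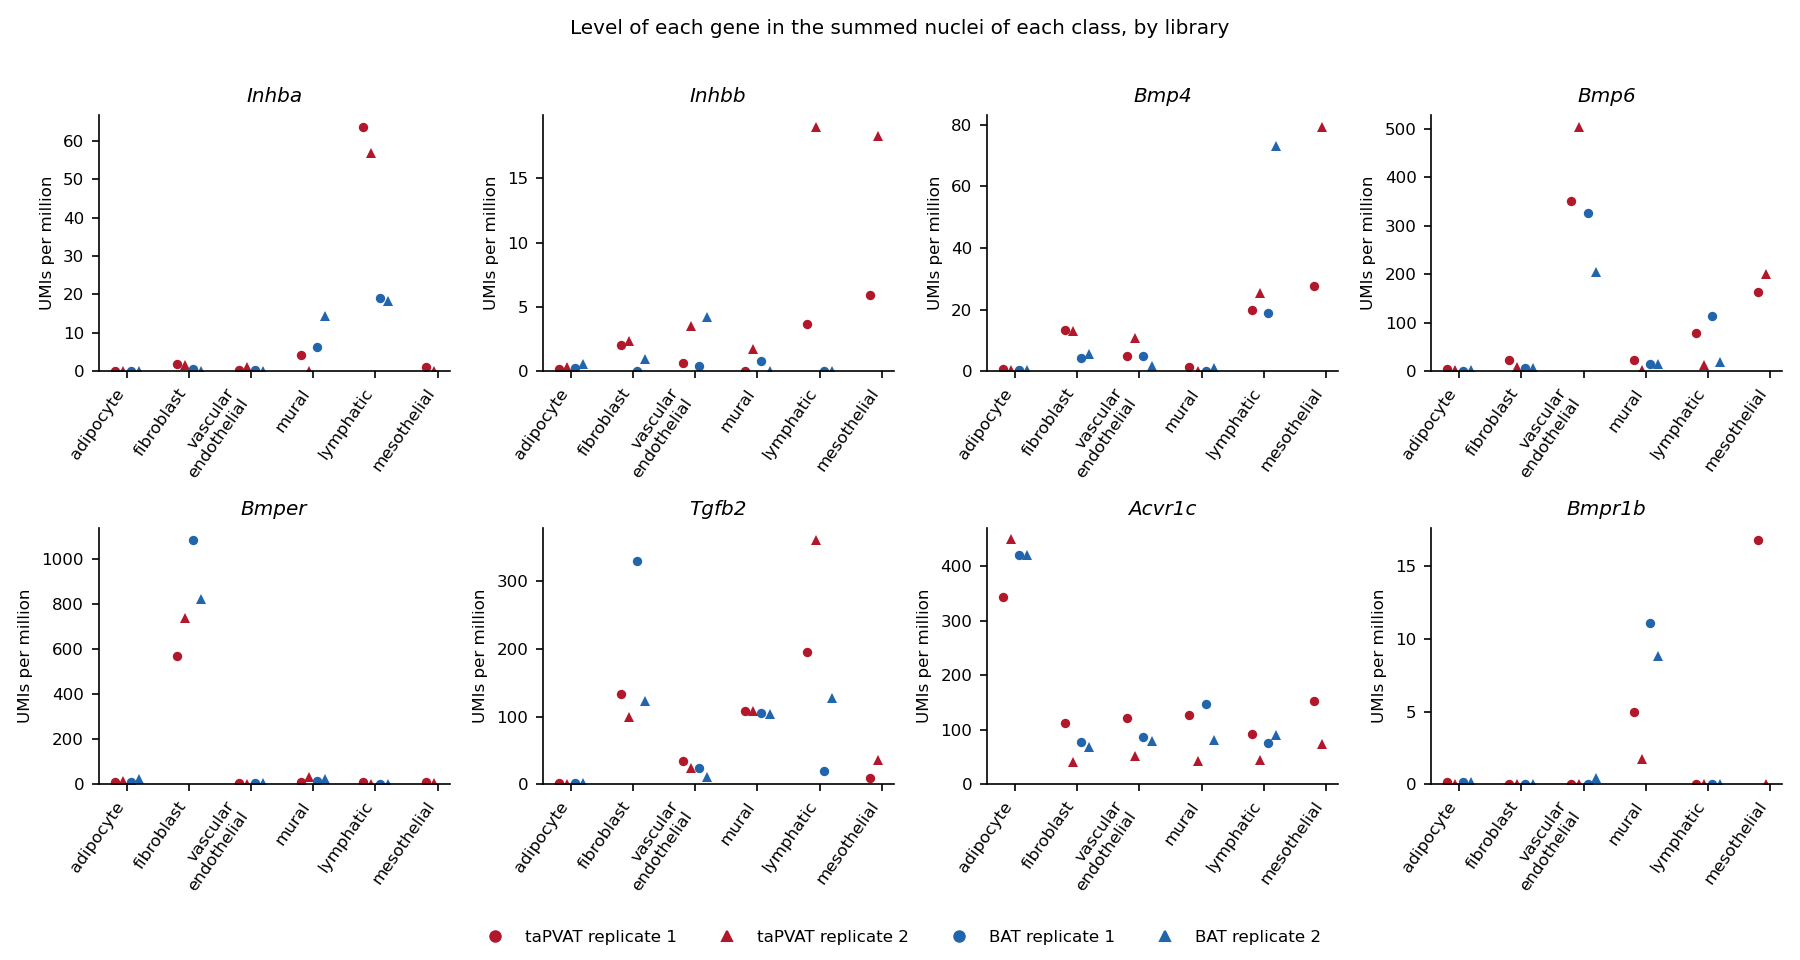
Level of 8 genes (CPM, linear axes that differ between panels) in the summed nuclei of 6 classes, 1 point per library where the class held at least 20 nuclei (red: taPVAT, blue: BAT, circles: replicate 1, triangles: replicate 2). Bmp6 stood highest in vascular endothelium (204 to 503.96), Bmper in fibroblasts (568 to 1082) and Acvr1c in adipocytes (344 to 449).

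**Figure D2:**
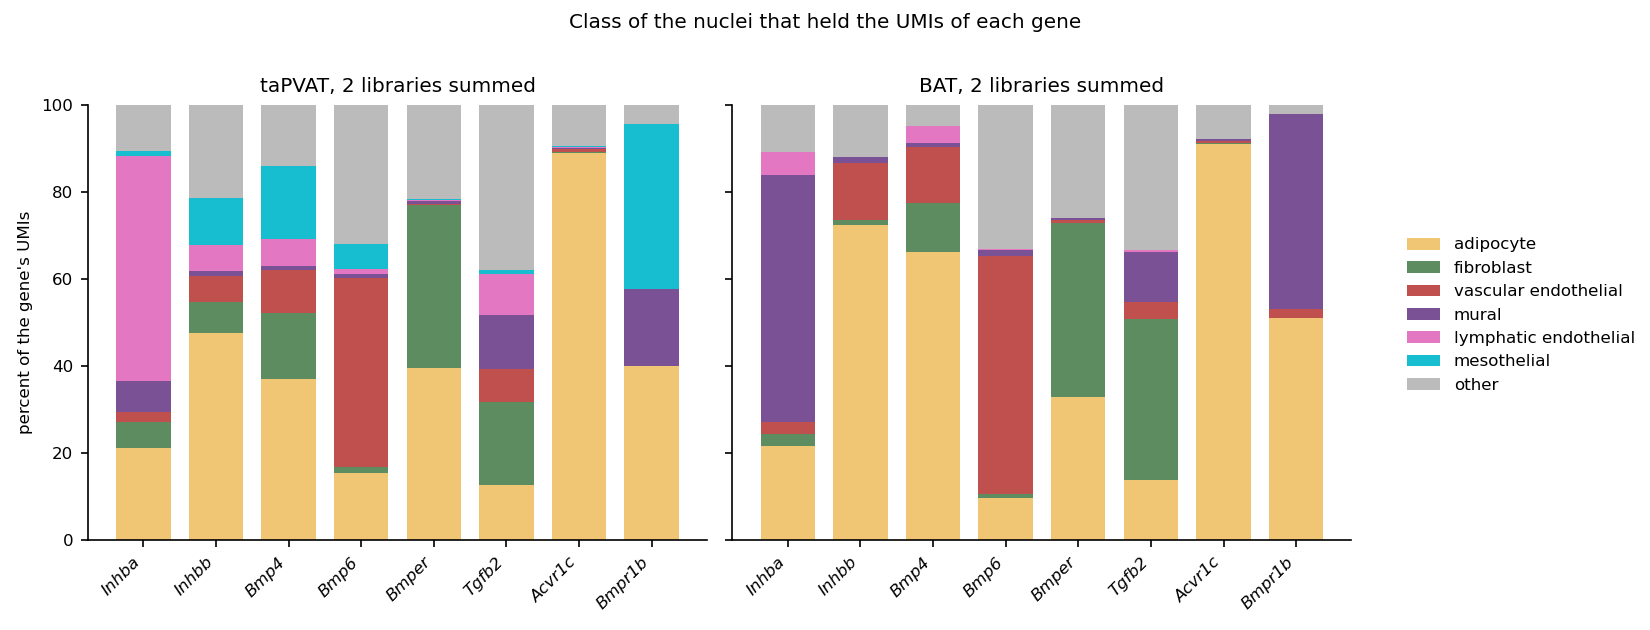
Share of each gene's UMIs (percent) found in nuclei of each class, summed over the 2 libraries of a tissue; other covers mixed, unnamed, Schwann and myeloid clusters. Adipocyte nuclei held 88.9% of the Acvr1c UMIs in taPVAT and 90.9% in BAT. Of the UMIs of all genes they held 79.3% and 89.6% in the taPVAT libraries and 85.2% and 83.1% in the BAT libraries. Lymphatic nuclei held 51.8% of the Inhba UMIs in taPVAT and 5.41% in BAT. RNA of other classes found in these nuclei was not subtracted.

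Activin subunits were rare in every library. Inhba, whose dimer is activin A, had 66, 19, 17 and 20 UMIs in all nuclei, or 0.484, 0.336, 0.140 and 0.270 CPM. Both taPVAT libraries lay above both BAT libraries. The fitted log2 fold change of taPVAT over BAT was 1.06 ± 0.52 (SE), with a Benjamini-Hochberg adjusted p of 1.0 by edgeR's quasi-likelihood test. Leaving out BAT replicate 1 gave 0.58, and leaving out BAT replicate 2 gave 1.60. In sums over all nuclei, more nuclei of a type and more RNA per nucleus cannot be told apart.

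The Inhba UMIs came from a few places. Lymphatic endothelium held 35, 9, 1 and 1 of them, at 63.6, 56.9, 18.99 and 18.3 CPM, from 326, 64, 28 and 24 nuclei. The 95% Poisson intervals of the BAT libraries there (0.481 to 106 and 0.462 to 102 CPM, counting error only) included both taPVAT values. Mural cells held 6, 0, 8 and 13 UMIs, or 4.26, 0, 6.36 and 14.3 CPM. All 27 of these mural UMIs fell in a single cluster of 414 nuclei led by Acta2, Myh11 and Myocd, genes of contractile smooth muscle. The other mural cluster, 1743 nuclei led by the pericyte genes Rgs5 and Abcc9, had 0 Inhba UMIs in all 4 libraries. The smooth muscle-like cluster made up 15.5% and 5.90% of mural nuclei in taPVAT and 26.2% and 24.5% in BAT, so the tissue with the larger share also had the higher mural level of Inhba; within BAT, replicate 1 had the larger share and the lower level. The part of this share in the level was not tested. Adipocytes held 13, 5, 3 and 5 UMIs, at most 0.120 CPM.

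Inhbb, the activin B subunit, had 50, 34, 30 and 53 UMIs in all nuclei, or 0.367, 0.6005, 0.248 and 0.715 CPM, and the tissues overlapped. Its fitted log2 fold change in all nuclei was 0.02 ± 0.64 (SE; edgeR adjusted p = 1.0), and it ran from -0.63 when BAT replicate 1 was left out to 0.98 when BAT replicate 2 was. Adipocytes held 40 of 84 UMIs in taPVAT and 60 of 83 in BAT, at 0.204, 0.355, 0.242 and 0.568 CPM. Of the UMIs of all genes, adipocyte nuclei held 79.3%, 89.6%, 85.2% and 83.1%, so Inhbb was not concentrated in adipocytes. Within adipocytes, 4 clusters had Kcnip1, a potassium channel-interacting protein gene, among their 10 leading genes, together with Nnat, Ca3 or Tshr in some of them. These clusters held 10.6%, 8.48%, 12.0% and 11.5% of adipocyte nuclei. Inhbb stood at 1.19, 1.87, 1.54 and 2.19 CPM there, from 13, 8, 16 and 24 UMIs. In all other adipocyte clusters it stood at 0.0926, 0.215, 0.0969 and 0.217 CPM, from 9, 10, 9 and 11 UMIs. In each library the Kcnip1 clusters were the higher ones; the split was made after the clusters were seen, and nuclei were clustered on their expression, so it is a description with no test. In endothelium Inhbb had 2, 3, 1 and 10 UMIs, or 0.638, 3.54, 0.416 and 4.24 CPM, above adipocytes in each library. Only the count of BAT replicate 2 lay above the floor of 3 counts. Fibroblasts had 3, 3, 0 and 1 UMIs, or 2.01, 2.32, 0 and 0.928 CPM, and mural cells at most 1 UMI per library.

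Acvr1c, the type I receptor ALK7 through which activin B and GDF3 can signal, was the adipocyte gene of the set. Its level in adipocytes was 344, 449, 421 and 421 CPM, from 37138, 22813, 43455 and 25905 UMIs. The taPVAT libraries lay on either side of the BAT libraries, which were alike. The fitted log2 fold change was -0.04 ± 0.29 (SE; edgeR adjusted p = 1.0) in adipocytes and -0.05 ± 0.26 (SE; edgeR adjusted p = 1.0) in all nuclei. In fibroblasts, endothelium and mural cells Acvr1c stood at 8.96% to 37.0% of the adipocyte level of the same library. The median adipocyte marker stood at 21.4% to 48.0% there, and single markers ran from 0% to 419%. Whether these levels are adipocyte RNA or expression was not tested, and they are not read as expression.

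Within adipocytes the level of Acvr1c followed the same clusters as Inhbb. In the Kcnip1 clusters it was 848, 879, 1067 and 647 CPM, and in the other adipocyte clusters 287, 410.0, 349 and 372 CPM. Every library had the higher level in the Kcnip1 clusters. The clusters were not uniform, and clusters 11 and 15 held mostly replicate 1 nuclei and clusters 17 and 27 mostly replicate 2. Cluster 11 reached 1313 CPM and cluster 17 1158 CPM over the 4 libraries, cluster 15 had 701 CPM and cluster 27 had 518 CPM. The median UMI count per nucleus was 2202 and 2455 in clusters 11 and 17, and 5052 and 7634 in clusters 15 and 27, so the clusters with the lower Acvr1c level were the deeper ones. The mean adipocyte marker level, relative to each marker's highest cluster, was 0.726 and 0.753 in clusters 11 and 17. It was 0.631 and 0.579 in clusters 15 and 27, and 0.507 to 0.653 in the other adipocyte clusters. Whether Acvr1c followed the general marker level was not tested.

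**Figure D3:**
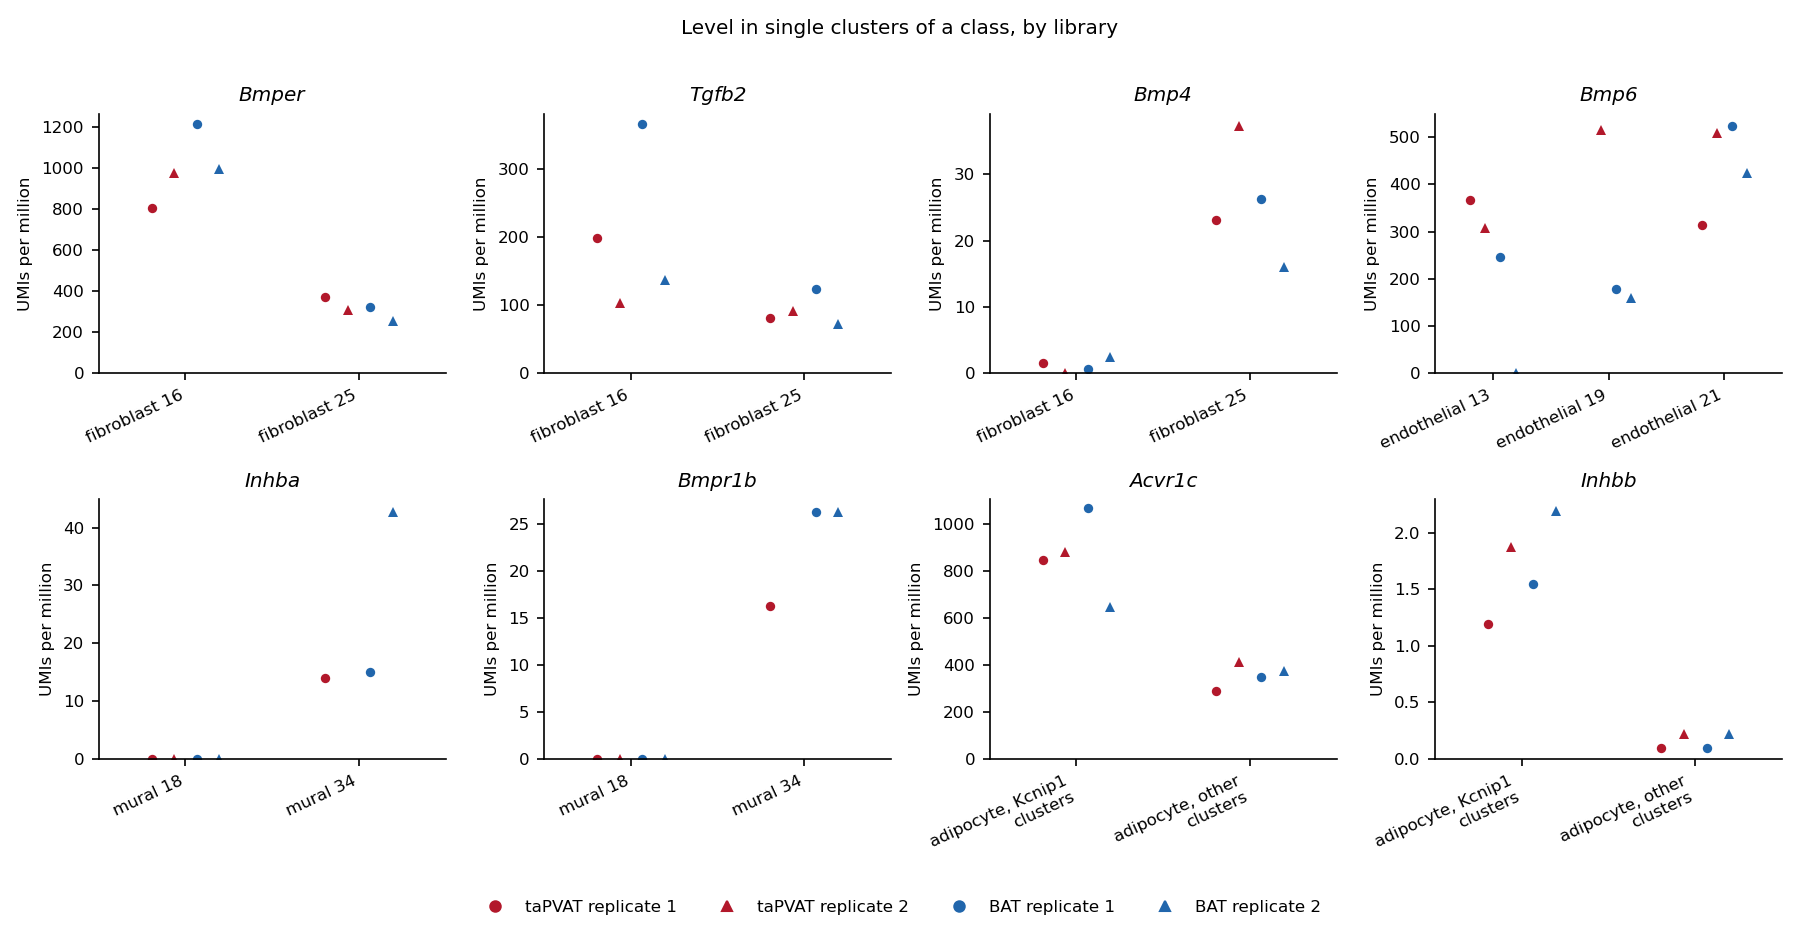
Level (CPM, linear axes that differ between panels) of 8 genes in single clusters of their main class or, for Acvr1c and Inhbb, in the adipocyte clusters led by Kcnip1 and in the other adipocyte clusters; 1 point per library with at least 20 nuclei in the cluster. Bmper and Tgfb2 stood higher in fibroblast cluster 16 and Bmp4 in fibroblast cluster 25 in each library, and Inhba and Bmpr1b were at 0 in mural cluster 18.

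Bmpr1b, the type I receptor ALK6 for BMPs and growth differentiation factors, was detected in few nuclei. It had 43, 2, 30 and 19 UMIs in all nuclei, or 0.316, 0.0353, 0.248 and 0.256 CPM. The low library was taPVAT replicate 2, and the tissues overlapped; the fitted log2 fold change was -0.37 ± 0.83 (SE; edgeR adjusted p = 1.0). Single libraries turned its direction: leaving out taPVAT replicate 1 gave -2.78, and leaving out taPVAT replicate 2 gave 0.33. Mural cells held 7, 1, 14 and 8 UMIs, or 4.97, 1.75, 11.1 and 8.81 CPM. All 30 fell in the smooth muscle-like cluster 34, where the level was 16.3 CPM in taPVAT replicate 1 and 26.4 and 26.3 CPM in BAT. That cluster held only 17 nuclei in taPVAT replicate 2. The pericyte-like cluster had 0 Bmpr1b UMIs, as for Inhba. Mesothelial nuclei of taPVAT held 17 and 0 UMIs, and adipocytes, with far more nuclei, 18, 0, 15 and 10. Fibroblasts had 0 Bmpr1b UMIs in each library, which allows up to 2.01, 2.32, 1.66 and 2.78 CPM at a floor of 3 counts per library. Neither Inhba nor Bmpr1b had enough UMIs in mural cells to enter the mural fit.

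Bmp6 was an endothelial gene in both tissues. Its endothelial level was 351, 503.96, 326 and 204 CPM, from 1101, 427, 784 and 481 UMIs. Both taPVAT libraries lay above both BAT libraries, but the nearest libraries of the tissues, both replicate 1, were closer together than the libraries within either tissue. The fitted log2 fold change was 0.65 ± 0.35 (SE; edgeR adjusted p = 1.0). In all nuclei Bmp6 stood at 20.96, 11.8, 11.8 and 11.8 CPM, with a log2 fold change of 0.49 ± 0.34 (SE; edgeR adjusted p = 1.0). In all nuclei a single library, taPVAT replicate 1, was the high one, and without it the log2 fold change was -0.01.

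The 3 endothelial clusters did not show the same difference. Cluster 21, led by Gja5, Bmx, Eln and Dkk2, of which Gja5 and Bmx are arterial genes, had 315, 509, 523 and 423 CPM of Bmp6, with the tissues overlapping. A fit restricted to this cluster gave a log2 fold change of -0.27 (edgeR adjusted p = 1.0). Cluster 13 was nearly all replicate 1 and stood at 368 CPM in taPVAT and 246 CPM in BAT. Cluster 19 was nearly all replicate 2 and stood at 516 CPM in taPVAT and 160.2 CPM in BAT. These are the values of 1 library per tissue each. The replicate 2 libraries of taPVAT and BAT had 31 and 23 nuclei in cluster 13. The replicate 1 libraries had 5 and 25 in cluster 19. Levels from so few nuclei are not read as a replicate check.

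In adipocytes Bmp6 stood at 3.84, 2.502, 1.23 and 1.59 CPM, 1.09%, 0.496%, 0.377% and 0.779% of the endothelial level of the same library. The median endothelial marker stood at 1.07%, 0.411%, 0.530% and 1.22% there, and single markers ran from 0.182% to 12.0%. Whether the adipocyte level of Bmp6 is endothelial RNA or expression was not tested. Fibroblasts had 23.4, 9.30, 6.07 and 6.50 CPM of Bmp6, 6.68%, 1.84%, 1.86% and 3.18% of the endothelial level, beside 4.92%, 0.771%, 1.55% and 2.76% for the median endothelial marker. Bmp6 was unequal between the fibroblast clusters: the 56 UMIs of cluster 25 gave 31.2 CPM against 2.32 CPM in cluster 16. Mesothelial nuclei, nearly all of them from taPVAT, had 164 and 201 CPM in its replicates 1 and 2.

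Bmp4 was sparse and was the member with the smallest unadjusted p in fibroblasts. Its level there was 13.4, 13.2, 4.42 and 5.57 CPM, from 20, 17, 8 and 6 UMIs. Both taPVAT libraries lay above both BAT libraries. The fitted log2 fold change was 1.36 ± 0.49 (SE), with an edgeR adjusted p of 0.752. In all nuclei Bmp4 stood at 1.26, 1.27, 0.602 and 0.688 CPM, and the log2 fold change was 0.99 ± 0.33 (SE; edgeR adjusted p = 1.0). Endothelium had 4.78, 10.6, 4.99 and 1.70 CPM, with a log2 fold change of 0.98 ± 0.72 (SE; edgeR adjusted p = 1.0) and overlapping tissues. With 1 library left out it ran from 0.45 without taPVAT replicate 2 to 1.86 without BAT replicate 1.

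The fibroblast UMIs of Bmp4 came almost wholly from 1 of the 2 fibroblast clusters. Cluster 25, led by Fbn1, Mfap5, Col14a1 and Gfpt2 and high in the adventitial progenitor marker Pi16 (702 CPM against 28.1 CPM in cluster 16), held 47 of 51 UMIs. Within it Bmp4 stood at 23.2, 37.3, 26.2 and 16.1 CPM and the tissues overlapped. Cluster 25 made up 52.8% and 36.7% of fibroblast nuclei in taPVAT and 14.4% and 23.1% in BAT. Its share moved with the Bmp4 level of the class, and its part in that level was not tested. Bmp4 also stood at 27.7 and 79.2 CPM in the mesothelial nuclei of taPVAT, from 28 and 13 UMIs, and mesothelial nuclei held 16.9% of its UMIs there. Adipocytes, at 0.474 to 0.574 CPM, held 37.0% of the Bmp4 UMIs in taPVAT and 66.1% in BAT. BAT libraries had 1 and 0 mesothelial nuclei, so this source has no BAT value.

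Among the 4 classes compared, Tgfb2 was shared by fibroblasts and mural cells. In fibroblasts it stood at 134, 99.1, 330.2 and 122 CPM, from 200, 128, 598 and 132 UMIs. BAT replicate 1 was the high library and the tissues overlapped. The fitted log2 fold change was -1.01 ± 0.43 (SE; edgeR adjusted p = 1.0), and with 1 library left out it ran from -0.23 without BAT replicate 1 (edgeR adjusted p = 0.999) to -1.50 without BAT replicate 2 (edgeR adjusted p = 0.119). Within each replicate number the taPVAT library was the lower one. In mural cells it stood at 108, 109, 106 and 103 CPM, nearly level, and the log2 fold change was -0.00 ± 0.27 (SE; edgeR adjusted p = 1.0). Endothelium had 35.1, 23.6, 23.7 and 10.2 CPM and adipocytes at most 2.18 CPM. Lymphatic endothelium, outside these classes, had 195, 360.4, 18.99 and 128 CPM, from 107, 57, 1 and 7 UMIs. It lay above fibroblasts in both taPVAT libraries and close to them in BAT replicate 2. In BAT replicate 1 it lay below them, but the single UMI there is under the floor of 57.0 CPM. Over all nuclei the log2 fold change was -0.19 ± 0.34 (SE; edgeR adjusted p = 1.0).

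Bmper, which encodes a secreted BMP-binding protein with chordin-like domains, was the fibroblast gene of the set. Its fibroblast level was 568, 738, 1082 and 823 CPM, from 848, 953, 1960 and 887 UMIs. Both taPVAT libraries lay below both BAT libraries, and the gap between the nearest libraries was smaller than the SD of either tissue. The fitted log2 fold change was -0.60 ± 0.33 (SE; edgeR adjusted p = 1.0) in fibroblasts and -0.43 ± 0.29 (SE; edgeR adjusted p = 1.0) in all nuclei. Adipocyte nuclei had 8.94 to 22.7 CPM, 0.826% to 2.76% of the fibroblast level, beside 1.24% to 2.16% for the median fibroblast marker. Because adipocytes were the most numerous nuclei, this low level still held 39.6% of all Bmper UMIs in taPVAT and 32.8% in BAT. Fibroblasts held 37.3% and 40.2%. Whether the UMIs in adipocyte nuclei are fibroblast RNA or adipocyte expression was not tested.

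Both Bmper and Tgfb2 stood higher in fibroblast cluster 16, led by Smoc2, Gria4 and Fap, than in cluster 25. Bmper had 806, 974, 1214 and 994 CPM in cluster 16 and 373, 307, 322 and 253 CPM in cluster 25. Tgfb2 had 198, 103, 366 and 138 CPM in cluster 16 and 81.6, 92.1, 124 and 72.3 CPM in cluster 25. Cluster 16 was the larger in both BAT libraries (85.6% and 76.9% of fibroblast nuclei, against 47.2% and 63.3% in taPVAT). Fits within single clusters, added after the data were seen, gave Bmper a log2 fold change of -0.35 in cluster 16 and 0.21 in cluster 25 (edgeR adjusted p = 1.0 and 0.997). Tgfb2 had -0.78 in cluster 16 and -0.22 in cluster 25 (edgeR adjusted p = 1.0 and 0.997).

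Grem1, the BMP antagonist gremlin 1, was not detectable as an expressed gene at this depth. A single UMI was counted, in an adipocyte nucleus of taPVAT replicate 1. Its floor of 3 counts in all nuclei corresponds to 0.0220, 0.0530, 0.0248 and 0.0405 CPM. It was the only member to fail every filter on low counts.

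Several pairs of members stood higher in the same cluster. Inhba and Bmpr1b did so in mural cluster 34, and Bmp4 and Bmp6 in fibroblast cluster 25. Promoter windows are shown for 2 other pairs, higher in the same clusters in each library: Acvr1c and Inhbb in adipocytes, Bmper and Tgfb2 in fibroblasts. Each holds the 250 bases before the annotated start, 5′ to 3′, from RefSeq (GRCr8); 8 of 9 members matched that table. The windows are Acvr1c, chr3:63301155-63301404, minus strand; Inhbb, chr13:33089374-33089623, minus strand; Bmper, chr8:30007916-30008165, plus strand and Tgfb2, chr13:100792686-100792935, minus strand. Capitals mark GGCGCC, a GC-rich motif that SMADs of the BMP branch can bind; it reads the same on both strands. It was found in 3 of the 8 windows, Inhbb, Bmper and Grem1, and in 8.69% of all 33469 windows of this length. The SMAD motif CAGAC, searched on both strands, was found in 1 of 8 windows (Bmp4) and in 42.9% of all windows. A match is a description of the letters only.
Acvr1c: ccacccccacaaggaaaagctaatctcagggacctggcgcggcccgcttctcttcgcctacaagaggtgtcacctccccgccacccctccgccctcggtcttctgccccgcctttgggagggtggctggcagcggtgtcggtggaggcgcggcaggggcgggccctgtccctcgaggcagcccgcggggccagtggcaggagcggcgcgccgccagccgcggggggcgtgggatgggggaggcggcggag
Inhbb: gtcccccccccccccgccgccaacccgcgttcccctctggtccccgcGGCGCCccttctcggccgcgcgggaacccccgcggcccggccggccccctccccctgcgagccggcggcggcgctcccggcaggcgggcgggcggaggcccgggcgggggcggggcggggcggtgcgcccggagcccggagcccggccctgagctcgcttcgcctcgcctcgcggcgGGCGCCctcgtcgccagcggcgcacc
Bmper: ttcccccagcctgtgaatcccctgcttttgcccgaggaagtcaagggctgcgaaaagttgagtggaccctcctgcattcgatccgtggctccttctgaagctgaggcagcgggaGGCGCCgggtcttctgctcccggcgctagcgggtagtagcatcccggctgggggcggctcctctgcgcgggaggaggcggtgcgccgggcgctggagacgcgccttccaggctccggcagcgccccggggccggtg
Tgfb2: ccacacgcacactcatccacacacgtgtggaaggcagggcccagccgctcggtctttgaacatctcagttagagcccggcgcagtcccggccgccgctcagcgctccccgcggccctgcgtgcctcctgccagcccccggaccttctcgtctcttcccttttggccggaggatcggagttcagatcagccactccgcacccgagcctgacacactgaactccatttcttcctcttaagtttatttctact

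The tests between the tissues found no member. After the filter on low counts, 8 members entered the fit of all nuclei, 7 that of adipocytes, 5 those of fibroblasts and of endothelium, and 4 that of mural cells, so counts over them do not cover all 9. In all nuclei neither edgeR nor DESeq2 called any of the 8 members (0 at an adjusted p under 0.05), and 1 member, Bmp4, lay under 0.05 before adjustment. Of all 16625 genes tested there, edgeR called 0, or 0%, with 472 at an unadjusted p under 0.05, and DESeq2 called 100. In adipocytes edgeR and DESeq2 called 0 of 7 members, and edgeR called 0% of all 15641 genes (331 unadjusted, 59 by DESeq2). There 1 member had an unadjusted p under 0.05, Bmp6, whose adipocyte level was not told apart from endothelial RNA. In fibroblasts both tools called 0 of 5 members, with 3 at an unadjusted p under 0.05, while edgeR called 21 of 9479 genes, or 0.222% (458 unadjusted, 54 by DESeq2). In endothelium both tools called 0 of 5 members and 0 had an unadjusted p under 0.05, and edgeR called 0% of all 10218 genes (86 unadjusted, 2 by DESeq2). In mural cells both tools called 0 of 4 members and 0 had an unadjusted p under 0.05, and edgeR called 1 of 8713 genes, or 0.0115% (356 unadjusted, 11 by DESeq2).

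For 3 of 8 members in all nuclei, both libraries of one tissue lay beyond both of the other, beside 21.3% of all genes tested. The same held for 2 of 7 members in adipocytes (19.7% of all genes), Bmp4 and Bmp6, the latter not told apart from endothelial RNA. It held for 3 of 5 in fibroblasts (27.4%), 2 of 5 in endothelium (20.6%) and 1 of 4 in mural cells (30.1%). In fibroblasts these were Bmp4 and Bmp6, higher in taPVAT, and Bmper, lower. In endothelium they were Bmp6, higher, and Bmper, lower. The fibroblast level of Bmp6 was 1.84% to 6.68% of its endothelial level, beside 0.771% to 4.92% for the median endothelial marker. The endothelial level of Bmper was 0% to 0.980% of its fibroblast level, beside 3.42% to 7.25% for the median fibroblast marker. Whether these levels are RNA of other classes was not tested. With 2 libraries per tissue, such separation says little about a single gene. The median log2 fold change of the members that entered a fit was -0.02 in all nuclei, -0.30 in adipocytes, -0.01 in fibroblasts, 0.65 in endothelium and -0.04 in mural cells. Over all genes tested it was -0.00, 0.00, -0.02, -0.00 and 0.00. The member medians include levels not told apart from RNA of other classes, such as that of Acvr1c in endothelium.

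**Figure D4:**
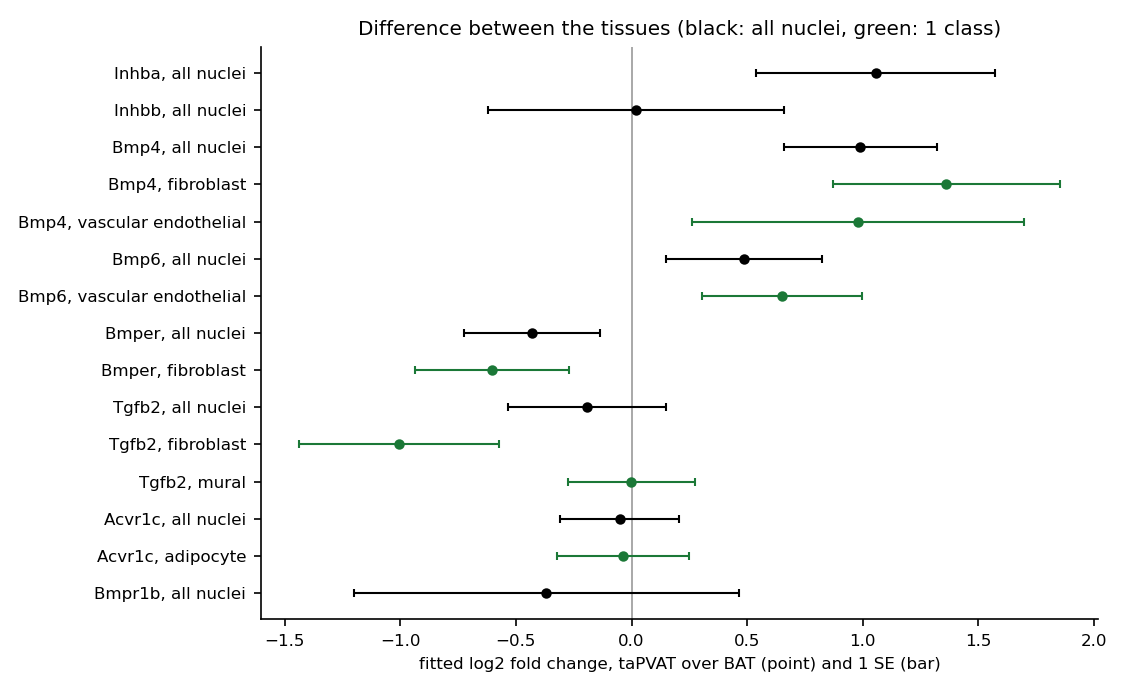
Fitted log2 fold change of taPVAT over BAT (point) and 1 SE on each side (bar) for each gene in all nuclei (black) and in the classes where its level was highest (green). The fibroblast value of Bmp4 was 1.36 and that of Tgfb2 was -1.01; none of the values shown passed an adjusted p of 0.05.

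Whether the difference between the tissues varied among the 4 classes was tested in 1 fit over 16 sums with a term for each library. It called 2 of 11288 genes, or 0.0177%, and neither was a member; 7 members entered it. The smallest unadjusted p values among them were 0.0750 for Inhba and 0.0767 for Tgfb2, both with an edgeR adjusted p of 1.0. For Tgfb2 the log2 fold change was 1.27 higher in endothelium, 0.46 higher in mural cells and 0.45 lower in fibroblasts than in adipocytes. The adipocyte level of Tgfb2 was 0.408% to 1.78% of its fibroblast level, beside 1.24% to 2.16% for the median fibroblast marker. Whether that level is fibroblast RNA or expression was not tested. For Inhba, with few UMIs in each class, the difference from adipocytes was -2.97 in mural cells, 1.20 in fibroblasts and 0.0923 in endothelium.

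Other genes of the pathway were taken from 4 lists: 24 further ligands, 22 further antagonists and ligand-binding proteins, 16 further receptors and co-receptors, and 21 SMADs and feedback targets. In none of the 5 fits did edgeR call a gene of any list in either direction. At an unadjusted p under 0.05 there were 3 of 6 ligands, 2 of 11 antagonists, 0 of 13 receptors and 4 of 18 SMADs or targets in the fibroblast fit, beside 458 of all 9479 genes. In endothelium the counts in the same order were 0 of 2, 0 of 10, 0 of 14 and 3 of 19, beside 86 of 10218 genes. In all nuclei they were 3 of 14, 3 of 18, 0 of 16 and 1 of 21, beside 472 of 16625. In adipocytes they were 1 of 13, 1 of 17, 0 of 16 and 0 of 21, beside 331 of 15641. In mural cells they were 1 of 5, 2 of 7, 1 of 13 and 3 of 18, beside 356 of 8713. DESeq2 called 2 genes of these lists, both in fibroblasts: Bmp5, described next, and Ccn2, a matricellular protein gene induced by TGF-beta. Ccn2, singled out after its values were seen, stood at 80.4, 26.3, 2.76 and 9.28 CPM in fibroblasts, with a log2 fold change of 3.18 ± 0.71 (SE; edgeR adjusted p = 0.209). There edgeR also called it with no filter on low counts and when taPVAT replicate 2, BAT replicate 1 or BAT replicate 2 was left out, but not when taPVAT replicate 1 was; the fits with a library left out take their spread from the other tissue alone. In endothelium it stood at 39.5, 44.8, 9.99 and 10.2 CPM (log2 fold change 2.00 ± 0.33, SE; edgeR adjusted p = 1.0). In mural cells, where its level was highest, it lay on the other side, at 35.5, 31.5, 52.5 and 179 CPM (log2 fold change -1.85 ± 0.59, SE; edgeR adjusted p = 0.980).

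The ligand list was led by Bmp1, the procollagen-cleaving protease that also cuts the BMP antagonist chordin, and by Bmp5. Bmp1 in fibroblasts stood at 78.4, 92.2, 78.4 and 87.2 CPM, with a log2 fold change of -0.03 ± 0.30 (SE; edgeR adjusted p = 1.0). Bmp5, a BMP of the same subgroup as BMP6, stood at 16.7, 24.8, 225 and 64.0 CPM in fibroblasts. Both taPVAT libraries lay below both BAT libraries, and the log2 fold change was -2.84 ± 0.56 (SE; edgeR adjusted p = 0.159). DESeq2 gave -2.84 with an adjusted p of 0.000217, and edgeR without the filter on low counts gave -2.88 with an adjusted p of 1.75e-09. With 1 library left out, edgeR gave -2.55 without taPVAT replicate 1 (adjusted p = 0.0399), -3.18 without taPVAT replicate 2 (0.0704), -1.77 without BAT replicate 1 (0.0364), and -3.43 when BAT replicate 2 was left out (3.99e-09). In such fits 1 tissue has a single library, which is assumed to vary like the other tissue, so their p-values rest on the spread of 2 libraries. The direction was the same in each of these fits, and the call was not. The edgeR fits within the fibroblast clusters 16 and 25 gave -2.38 (adjusted p = 0.529) and -3.02 (adjusted p = 0.0486). In fibroblasts Bmp5 thus lay lower in taPVAT on the same side as Bmper, while Bmp4 lay on the other side.

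Antagonists and ligand-binding proteins were led by Crim1 and Ltbp1. Crim1, a membrane protein with cysteine-rich repeats that bind BMPs, stood at 1020.1, 1243, 1125 and 1240.5 CPM in mural cells, with a log2 fold change of -0.11 ± 0.33 (SE; edgeR adjusted p = 1.0). Ltbp1, which tethers latent TGF-beta to the matrix, stood at 309, 327, 368 and 646 CPM in fibroblasts. Its log2 fold change was -0.76 ± 0.38 (SE; edgeR adjusted p = 1.0), with both taPVAT libraries below both BAT libraries. BAT replicate 2 was the high library, and without it the log2 fold change was -0.20.

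Among receptors, the co-receptor Tgfbr3 (betaglycan), which presents TGF-beta 2 and inhibin, stood at 956, 1005, 1268 and 770.2 CPM in fibroblasts, and the tissues overlapped. Eng (endoglin), an endothelial co-receptor, stood at 541, 888, 462 and 540.3 CPM in endothelium. Their log2 fold changes were -0.11 ± 0.34 and 0.46 ± 0.36 (SE; edgeR adjusted p = 1.0 for each). Eng was higher in both taPVAT libraries than in either BAT library, although taPVAT replicate 1 and BAT replicate 2 were nearly level.

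Feedback targets were led by Pmepa1, a TGF-beta-induced inhibitor of SMAD2 and SMAD3 signalling, in adipocytes and by Id1, a BMP-induced transcriptional inhibitor, in endothelium. Pmepa1 stood at 393, 407, 369.5 and 466 CPM (log2 fold change -0.02 ± 0.28, SE; edgeR adjusted p = 1.0). Id1 stood at 354, 602, 223 and 405 CPM (log2 fold change 0.53 ± 0.44, SE; edgeR adjusted p = 1.0), with overlapping tissues. Over this list, libraries did not overlap for 7 of 18 genes in fibroblasts, all 7 higher in taPVAT, beside 27.4% of all genes in either direction. In endothelium 6 of 19 did not overlap, all 6 higher in taPVAT, beside 20.6% of all genes in either direction. In all nuclei and in adipocytes 4 of 21 did not overlap, 3 higher and 1 lower in each, beside 21.3% and 19.7%. The share of all genes lying higher in taPVAT was not taken, so the counts in a single direction have no matching share. The list's median log2 fold change was 0.14 in fibroblasts and 0.16 in endothelium, beside -0.02 and -0.00 over all genes tested. In mural cells 1 gene of 18 lay higher and 4 lay lower, beside 30.1%, and the median was -0.08.

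Over the 16 sums of 4 classes in 4 libraries, genes with the pattern of log2(CPM + 1) most like each member were found among 11281 genes, as a description. The sums share libraries, and RNA of adipocyte markers was counted in all of these classes. Bmp6 was most like Slc26a10 (Pearson r = 0.98) and Kdr (0.98), the main receptor of vascular endothelial growth factor and one of the endothelial markers. Bmper was most like Nova1 (0.98), a splicing factor, and Eda (0.97), a ligand of the tumour necrosis factor family. Tgfb2 was most like Plcl2 (0.98) and the neurotrophin gene Ntf3 (0.98). Acvr1c was most like Acsl1 (0.99), an acyl-CoA synthetase that was also on the adipocyte marker list. For the sparse members the values rest on few UMIs: Bmpr1b was most like Rbm24 (0.99) and Kcnj12 (0.99), Bmp4 like Tmem229b (0.94) and Thap7 (0.94), Inhba like Galnt13 (0.91) and Cyp4v3 (0.89), and Inhbb like Gatad1 (0.86) and Hes1 (0.83). Grem1, with 1 UMI, was left out.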

How the data were processed

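Single-nucleus libraries (10x 3' v3 chemistry) were deposited as raw UMI counts per gene and barcode; Cell Ranger 7.1.0 and build Rnor_6.0 are named in the submitters' processing notes. Nuclei with at least 500 detected genes were kept. Doublets called by Scrublet were removed; it called 0 in BAT replicate 1, where the 6402 highest scores (18.5%) were removed instead. Nuclei were clustered with scanpy 1.11.5 (3000 variable genes, 30 components, Leiden resolution 3, chosen after the data were seen in place of 1), and clusters were named from marker lists. Some listed markers (Col1a2, Col6a3, Pecam1 and others) were not analysed here. Counts were summed per library and class. Tissues were compared with edgeR 4.0.16 (quasi-likelihood test, TMM, filterByExpr, Benjamini-Hochberg over all genes tested, threshold 0.05), with the 4 libraries as replicates, 2 per tissue. The scripts were checked on simulated data. Alternatives were DESeq2 1.42.0, no filter on low counts, a replicate block, each library left out (the tissue left with 1 library is then assumed to vary like the other, whose 2 libraries alone give the spread), no doublet removal, at least 1000 genes per nucleus, and nuclei gated singly by markers; fits within single clusters were added after the data were seen.

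The members, gene lists and markers were chosen with earlier results of these data known. Besides the members, the genes named were the 2 of each pathway list with the highest mean level in a class, any list gene with an adjusted p under 0.05, and the 2 genes most correlated with each member, of which 1 is not reported here. Fold changes are given for all nuclei, for the class of highest level, and for any class whose level was at least 0.5 of that. A level's floor is 3 counts; intervals are exact Poisson (95%) and cover counting error only. Promoters came from RefSeq (GRCr8), a build other than that of the counts, and no coordinates were mixed.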

Additional observations from a re-analysis of the deposited data

Results flagged for a closer look

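Some members stood higher in the lymphatic endothelial or mesothelial nuclei, which entered none of the comparisons, than in any of the 4 classes compared. Over the 4 libraries, Inhba reached 56.4 CPM in lymphatic endothelium (46 UMIs, 44 of them from taPVAT), above the highest of the 4 classes, mural cells, at 6.51 CPM. All 27 mural UMIs of Inhba fell in the smooth muscle-like cluster, so the level of that cluster alone lay above 6.51 CPM. Inhbb reached 6.13 CPM in lymphatic endothelium (5 UMIs) and 7.63 CPM in mesothelial nuclei (9 UMIs), above 1.83 CPM in vascular endothelium. Its lymphatic UMIs were 2, 3, 0 and 0 by library, none above the floor of 3 counts, so no lymphatic level is read from them. Bmp4 reached 24.5 CPM in lymphatic endothelium (20 UMIs) and 34.7 CPM in mesothelial nuclei (41 UMIs), above 8.99 CPM in fibroblasts. Tgfb2 reached 211 CPM in lymphatic endothelium (172 UMIs), beside 187 CPM in fibroblasts; by library it was the higher in both taPVAT libraries (195 and 360.4 against 134 and 99.1 CPM) close to fibroblasts in BAT replicate 2 (128 against 122 CPM), and the lower in BAT replicate 1 (18.99 against 330.2 CPM, from 1 UMI). Bmpr1b reached 14.4 CPM in mesothelial nuclei (17 UMIs), above 7.24 CPM in mural cells. All 17 were in taPVAT replicate 1, at 16.8 CPM, and 0 in taPVAT replicate 2. The smooth muscle-like cluster alone stood at 16.3 CPM in taPVAT replicate 1 and at up to 26.4 CPM in BAT. Both classes came mostly from taPVAT: lymphatic endothelium had 326, 64, 28 and 24 nuclei and mesothelium 355, 66, 1 and 0, so these levels were not compared between the tissues.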

How the results depend on the processing

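Among the reported fold changes of the members, only the replicate block moved a value past the threshold. That value was Tgfb2 in fibroblasts (-0.90, edgeR adjusted p = 0.0346). Values outside the reporting rule also passed: Bmp6 in adipocytes with the block (1.21, adjusted p = 0.0154) and Acvr1c in mural cells without taPVAT replicate 1 (-1.43, adjusted p = 0.0441). The last compares 1 taPVAT library (24 UMIs) with 2 of BAT. The mural level of Acvr1c was not told apart from adipocyte RNA, nor the adipocyte level of Bmp6 from endothelial RNA. With a library left out, the spread comes from the other tissue alone. Without the filter on low counts, Tgfb2 was also called in the test of tissue by class. Libraries of the same replicate number deviated together (r = 0.76 in all nuclei, 0.75 in adipocytes, 0.42 in fibroblasts, 0.52 in endothelium, 0.34 in mural cells), but the labels do not say that a number marks an animal, day or batch. Counts of genes called follow for all nuclei, adipocytes, fibroblasts, endothelium, mural cells and tissue by class, in that order. They were 386, 514, 341, 13, 26 and 1 with the block, beside 0, 0, 21, 0, 1 and 2 without it. DESeq2 called 100, 59, 54, 2 and 11 in the first 5, and without the filter the 6 counts were 60, 33, 195, 14, 104 and 226. Leaving out 1 library gave 0 to 97, 0 to 121, 51 to 114, 0 to 13, 1 to 317 and 0 to 5. In mural cells 317 were called without taPVAT replicate 1, in endothelium 13 without taPVAT replicate 2, and in adipocytes 121 and 120 without BAT replicates 1 and 2. At least 1000 genes per nucleus gave 0 in mural cells, gating gave 0 in mural cells and 1 for tissue by class, and single clusters gave 7 (cluster 16) and 3 (cluster 18). The cause was not tested.

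Over the alternatives for the members and the 8 list genes named by rule (Ccn2 is not among them), 205 kept direction and side of the threshold, 8 newly passed (7 of them Bmp5 in fibroblasts) and 25 turned direction. Turned log2 fold changes were Bmp6 in endothelial cluster 21 (-0.27), Bmper in fibroblast cluster 25 (0.21), Tgfbr3 in cluster 16 (0.038), Inhbb in all nuclei with no doublet removal (-0.068), and Tgfb2 in mural cells with the block (0.0021), no doublet removal (0.064) and gating (0.35). Gating also turned Bmp1 (0.22) and Crim1 (0.21). With 1 library left out, ranges crossing 0 were, in all nuclei, Inhbb -0.63 to 0.98, Bmp6 -0.0062 to 0.83, Tgfb2 -0.52 to 0.092, Acvr1c -0.27 to 0.11 and Bmpr1b -2.78 to 0.33; in classes, Tgfb2 mural -0.057 to 0.054, Acvr1c adipocyte -0.28 to 0.13, Bmp1 -0.18 to 0.13, Crim1 -0.32 to 0.067, Tgfbr3 -0.36 to 0.20 and Pmepa1 -0.25 to 0.18. Bmp5 ranged from -3.43 to -1.77, and with the block it was -2.70 (edgeR adjusted p = 4.74e-08). Ccn2 was newly called in fibroblasts with the block, with DESeq2, without the filter and with each library but taPVAT replicate 1 left out. It was also called in endothelium with the block or without the filter, and in mural cells without the filter or without taPVAT replicate 1. Other ranges with 1 library left out were Bmp6 in endothelium 0.35 to 0.94, Bmper -0.83 to -0.40 in fibroblasts and -0.74 to -0.21 in all nuclei, Ltbp1 -1.17 to -0.20, Eng 0.034 to 0.79 and Id1 0.080 to 1.11. Depth limits Grem1, Inhba, Inhbb, Bmpr1b and Bmp4 most, since each class held few of their UMIs.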
